A study of Mus musculus with 8 samples.

Results

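The miR-125 sites in 3' UTR clusters are clusters of reads from an Argonaute immunoprecipitation of mouse forebrain that the deposited table places in a 3' UTR and that hold the 6 bases complementary to the seed of miR-125. They were found by their annotation in a 3' UTR and at least 1 match in the miR-125a-5p column of the deposited table of clusters, a cluster being a stretch of genome covered by overlapping reads. The rule gave 646 clusters with 691 matches, out of 9284 3' UTR clusters (6.96%, 95% Wilson interval 6.46 to 7.49) and 70142 clusters of all kinds. Neither the read counts nor the other seed columns entered that choice, and the other 8638 3' UTR clusters are the comparison.

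The study used FLAG-Ago HITS-CLIP, which sequences the RNA that ultraviolet light has crosslinked to immunoprecipitated Argonaute, to look for miRNA seed targeting in Camk2a neurons. Its 5 Flag-Ago2 libraries came from Camk2a-cre; Rosa-Stopfl/fl-Flag-Ago2 animals, whose Cre is driven by the Camk2a promoter and switches on Flag-tagged Ago2 in forebrain neurons. The study's labels number these 5 libraries 1, 2a, 2b, 3a and 3b, so they may not all be independent replicates. Its 3 control libraries came from Rosa-Stopfl/fl-Flag-Ago2 animals, which carry the same tagged allele without Cre, and all mice were 8 to 14 weeks old. The table holds 1 read count per cluster for the whole study, with 1834586 reads in all and no clusters under 10 reads, and the sources used here do not give which libraries entered it. The Flag-Ago2 libraries could therefore not be set against the controls, and no value has a replicate error. Intervals are 95% and cover counting error only, since PCR copies of a molecule could not be told from separate molecules and clusters of 1 table are not replicates. In pooled tissue, fewer cells of a type and less RNA per cell cannot be told apart.

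miRNAs guide Argonaute to mRNAs through their seed, the bases near the 5' end of the miRNA, and a bound mRNA is usually repressed in translation and destabilised. miR-125a and miR-125b are mammalian relatives of lin-4 of C. elegans, the founding miRNA of developmental timing. They are abundant in brain, where they are known for roles in neuronal differentiation and at dendritic synapses. A match to bases 2 to 7 alone is called a 6mer. Pairing of base 8 as well gives a 7mer-m8, an A opposite base 1 gives a 7mer-A1, and both together give an 8mer, usually the most effective kind.

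The table's miR-125a-5p column counts the 6-mer that also serves 4 other miRNAs. Their mature sequences, from RefSeq (GRCm38.p6), are shown because all 5 share bases 2 to 8, given in capitals, so that no match can be assigned to one of them. They differ in the 3' portion.
miR-125a-5p: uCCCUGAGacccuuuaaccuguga
miR-125b-5p: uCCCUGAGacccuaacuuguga
miR-351-5p: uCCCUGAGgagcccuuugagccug
miR-6367: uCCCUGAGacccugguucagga
miR-6394: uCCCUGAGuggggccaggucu

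The sites below are the matches in the deepest cluster and 10 8mers from among the deepest clusters that have one, not all of those of like depth being printed. Each is 28 bases of the mRNA strand in DNA letters, ending at the base opposite miRNA base 1, with the bases that match in capitals, read from GENCODE M21 transcripts on GRCm38.
Fbxo32: ggaagaaaggagaaggagatCTCAGGGc
D430041D05Rik: cctgtccagcctggctccagCTCAGGGA
Rnpepl1: cccccagcagcaccatctctCTCAGGGA
Bap1: tcctctgggagagcaccaaaCTCAGGGA
Wipf3: aatagcaagcgaggaacggtCTCAGGGA
Slc24a3: gtgagtcctaggttacggggCTCAGGGA
Speg: gctggagtggaatgctatatCTCAGGGA
Sec14l2: tgaagcgattggatgtcataCTCAGGGA
Them6: tggctggggcctgcagcttaCTCAGGGA
Ddx19b, upstream site: tgagctcttggacgaaggagCTCAGGGA
Ddx19b, downstream site: ggaaagaaagaagggagaagCTCAGGGA
In the Fbxo32 site base 8 is paired and no A stands opposite base 1, which makes it a 7mer-m8. It lies at chr15:58180238-58180265 on the minus strand. The D430041D05Rik site lies at chr2:104145128-104145155 on the minus strand and the Rnpepl1 site at chr1:92919809-92919836 on the plus strand. The Bap1 site lies at chr14:31259326-31259353, the Wipf3 site at chr6:54503483-54503510, the Slc24a3 site at chr2:145640833-145640860 and the Speg site at chr1:75431791-75431818, all on the plus strand. The Them6 site lies at chr15:74723893-74723920 on the plus strand. The Sec14l2 site lies at chr11:4097964-4097991 and the Ddx19b sites at chr8:111006157-111006184 and chr8:111006132-111006159, all on the minus strand. All of these clusters are annotated in the 3' UTR of the gene named, and that of Rnpepl1 also in its coding sequence.

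The clusters around these 8mers were far shallower than the Fbxo32 cluster, from 157 reads in D430041D05Rik down to 53 in Ddx19b, whose cluster held 2 8mers. Bap1 had 78 reads and Wipf3, of a family of actin regulators, had 76. Slc24a3, a sodium, potassium and calcium exchanger, had 60 reads, and Speg, a kinase best known from striated muscle, had 59. Sec14l2, a lipid-binding protein, had 57 reads and Them6 had 56.

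Reads were spread very unevenly over the 646 clusters, and the cluster in Fbxo32 alone held 12.4% of them. Fbxo32 encodes atrogin-1, the F-box subunit of a ubiquitin ligase known for protein breakdown in wasting muscle. Its cluster, at chr15:58180177-58180323 on the minus strand, had 3041 reads over 147 bases, which is 2069 reads per 100 bases. The next by reads per 100 bases was 1810041L15Rik at 173. The single miR-125 match of the Fbxo32 cluster lay 8.5 bases downstream of its centre, and the same cluster also holds a match to the seed of miR-128, so its reads cannot be assigned to either. The gene has 4 3' UTR clusters with 3095 reads in all.

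After Fbxo32 the deepest cluster was in Gria1, which encodes the GluA1 subunit of AMPA-type glutamate receptors. It had 305 reads over 445 bases and 2 6mers, at -176.5 and 186.5 bases from its centre (negative upstream), and it also matched miR-124, miR-23 and miR-24. The cluster in 1810041L15Rik had 218 reads over 126 bases. In Kif1b, a kinesin that carries organelles along axons, 208 reads covered 233 bases with a 7mer-A1 and a 6mer. These counts are per cluster, and wide clusters fall back when length is allowed for: the Gria1 cluster was 13th of the 646 by reads per 100 bases.

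The other clusters described among the 15 deepest had 136 to 194 reads. Mepce, the enzyme that caps the 7SK RNA, had 194 reads with a 7mer-m8 near the cluster edge, 72.5 bases from the centre. Zfp664, a zinc finger gene, had 191 reads, and Synj2, an inositol phosphatase of membrane traffic, had 185 in a cluster also annotated as intron. D430041D05Rik had 157 and Rnpepl1, of an aminopeptidase family, had 136, and both held an 8mer. Nrep had 155 reads. Tmod2, which caps the slow-growing ends of actin filaments in neurons, had 154, and Tnk2, a non-receptor tyrosine kinase, had 147. Ctxn1 had 140, in a cluster also annotated as coding sequence, 5' UTR and intron, and Scn4b, a sodium channel beta subunit, had 137. The clusters of Ctxn1, Scn4b and Rnpepl1 were 751 to 772 bases wide, at 17.6 to 18.6 reads per 100 bases, against a median of 13.2 over all 646.

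**Figure D1:**
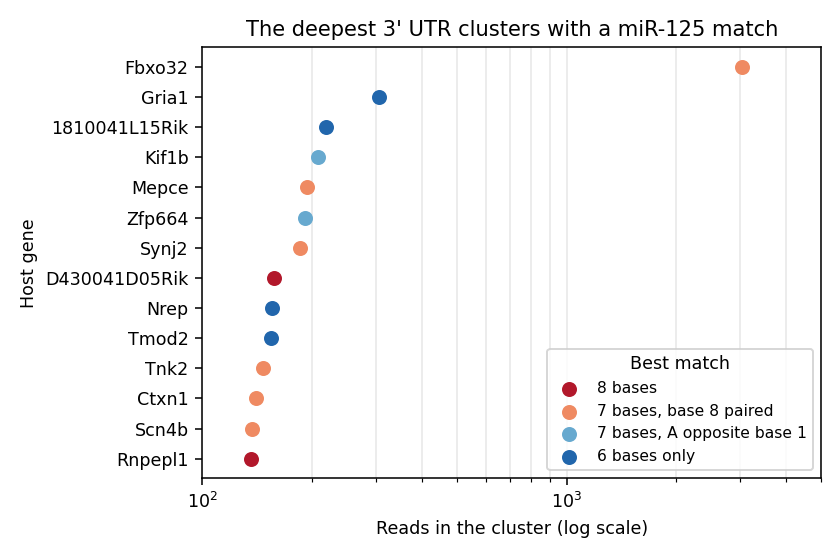
Reads per cluster for 14 of the 15 deepest miR-125 clusters, by host gene, with the kind of match marked; the read axis is logarithmic. The Fbxo32 cluster stands at 3041 reads, and the other 13 lie between 136 and 305.

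Outside these, most clusters were shallow. Of the 646 clusters, 256 (39.6%) had under 20 reads, 365 had 20 to 99, and the 25 with 100 or more held 6745 of the 24437 reads (27.6%). Together the 646 clusters held 8.22% of the 297436 reads in 3' UTR clusters, or 7.27% without the Fbxo32 cluster.

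Compared with the other 3' UTR clusters, those with a miR-125 match held slightly more reads and were wider. The median was 24 reads (22 to 26) in miR-125 clusters and 21 (21 to 22) in the others, intervals that meet at 22. The middle of the distribution ran from 15 to 38 reads in miR-125 clusters and from 14 to 34 in the others. The median width was 173.5 bases (165 to 179) for miR-125 clusters and 143 (141 to 144) for the others. A wider cluster has more places for a 6-mer, and the share with a miR-125 match was 4.28% in the narrowest of 4 equal width classes, then 5.86%, 7.25% and 10.5%. Within these classes, from narrow to wide, the median reads were 18 in miR-125 clusters against 18 in the others, 22 against 21, 21 against 20 and 29.5 against 28. Per 100 bases the order turned, with a median of 13.2 reads (12.4 to 14.5) in miR-125 clusters and 14.4 (14.1 to 14.6) in the others, and these intervals overlap. Within a width class the medians differed by at most 1.5 reads.

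**Figure D2:**
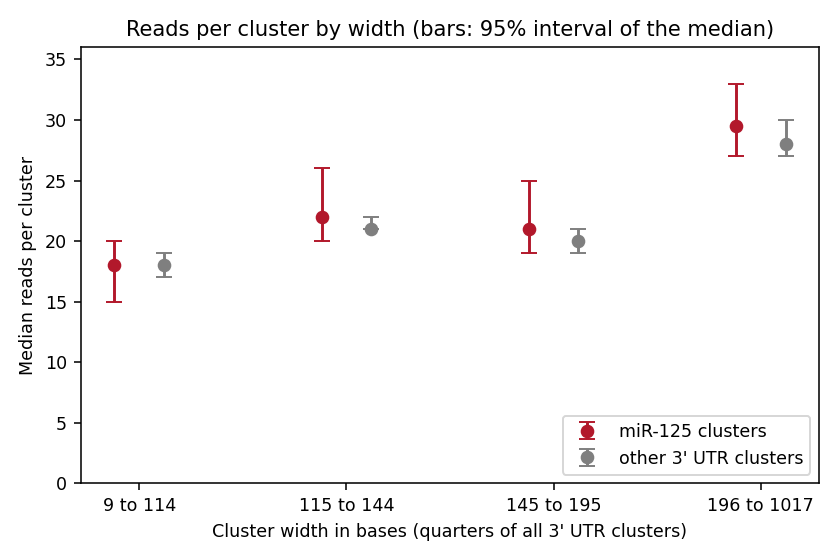
Median reads per cluster in 4 classes of cluster width, for miR-125 clusters (left of each pair) and other 3' UTR clusters, with exact binomial 95% intervals. The medians differ by at most 1.5 reads within a class, and in the widest class they are 29.5 and 28.

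Clusters of 100 or more reads made up 3.87% of the miR-125 clusters (2.63 to 5.65) and 2.60% of the others (2.29 to 2.96), against 2.69% of all 3' UTR clusters. Of the 25 deep miR-125 clusters, 17 were in the widest class, where the share was 7.02% among miR-125 clusters and 4.61% among the others. In the 3 narrower classes the shares were 0.980%, 2.26% and 2.37% among miR-125 clusters, against 1.05%, 2.39% and 2.54% among the others. The intervals of the overall shares overlap, and the difference in the share of deep clusters was not tested.

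Clusters with the different kinds of match overlapped in depth. Clusters whose best match was an 8mer had a median of 22 reads (18 to 27, 87 clusters). A best match of 7mer-m8 had 23 reads (20 to 28, 144 clusters), a 7mer-A1 had 23 (18 to 29, 136 clusters) and a 6mer had 25 (22 to 28, 258 clusters). The intervals of all 4 overlap. In the remaining 21 clusters the kind of match was not read, because the sequence around the match lies outside the transcripts used. Within genes that have at least 2 3' UTR clusters, the miR-125 cluster was the deepest of its gene in 161 of 456 cases (35.3%, 31.1 to 39.8) and another cluster in 1988 of 6086 (32.7%, 31.5 to 33.9).

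A second match in the same cluster was uncommon. Of the 646 clusters, 605 held 1 match, 38 held 2, 2 held 3 and 1 held 4. The 41 clusters with 2 or more had a median of 25 reads (19 to 35), and the 605 with 1 match had 24 (22 to 26). The nearest matches in those 41 clusters were 49 bases apart in the median (33 to 61) and 9 bases apart at the closest. The cluster with 4 matches was in St6galnac6, a sialyltransferase gene, and had 10 reads, the lowest count the table holds; it is also annotated in the coding sequence and 5' UTR. Scn2b, another sodium channel beta subunit, had 35 reads on a cluster of 129 bases with 2 8mers and a 6mer and no match to the other brain families examined. Atp6v1g2, a subunit of the vacuolar proton pump, had 13 reads on a cluster with an 8mer, a 7mer-m8 and a 6mer. That cluster is also annotated as coding sequence and intron.

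The kinds of match inside the clusters were then set beside those in the same 3' UTRs outside any cluster. Of 670 matches read inside, 13.3% were 8mers (10.9 to 16.1), and of 616 outside, 9.74% were (7.64 to 12.3). The shares of 7mer-m8 were 22.1% inside and 25.2% outside, those of 7mer-A1 21.3% and 19.8%, and those of 6mers 43.3% and 45.3%. An A opposite base 1 was present at 34.6% of matches inside (31.1 to 38.3) and 29.5% outside (26.1 to 33.3), while base 8 was paired at 35.4% inside and 34.9% outside. Each of these pairs of intervals overlaps. The flanks of 30 bases on either side had a median A+U share of 46.7% inside and 48.3% outside.

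**Figure D3:**
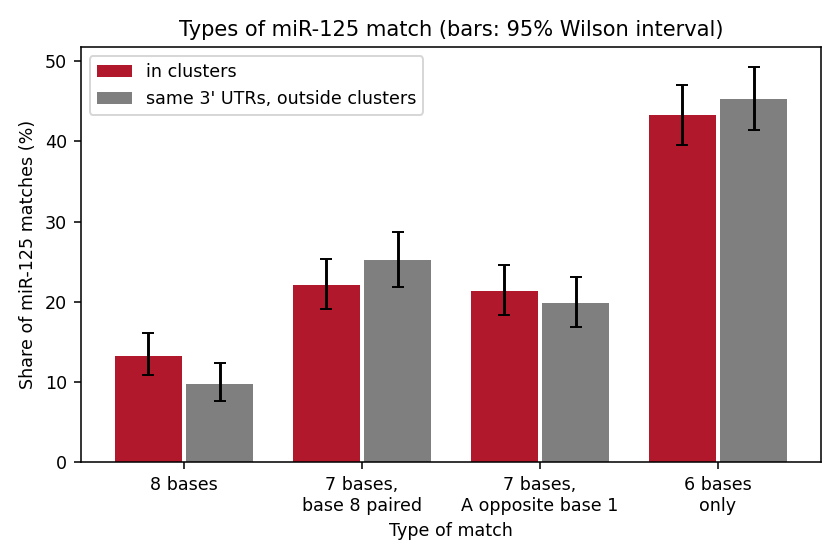
Share of miR-125 matches that are 8mer, 7mer-m8, 7mer-A1 or 6mer, in clusters (left of each pair, 670 matches) and in the same 3' UTRs outside clusters (616 matches), with Wilson 95% intervals. The intervals overlap for each kind; 8mers were 13.3% in clusters and 9.74% outside.

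Pairing beyond the seed was looked for because it is where the 5 miRNAs differ. It was examined for miR-125a-5p, miR-125b-5p and miR-351-5p, and not for miR-6367 or miR-6394. The complement of miRNA bases 13 to 16 within 4 to 15 bases upstream of the match was present for miR-125a-5p at 2.99% of matches inside clusters and 2.29% outside. For miR-125b-5p the shares were 1.65% inside and 1.96% outside. For miR-351-5p they were 8.23% inside (6.38 to 10.6) and 4.26% outside (2.92 to 6.16). The miR-351-5p intervals do not overlap, and the miR-125a-5p and miR-125b-5p intervals do. The 4 bases concerned differ between the miRNAs in G+C, and its part in these shares was not tested.

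miR-125 matches lay somewhat nearer to the cluster centres than the clusters' own positions did. Of the 670 matches, 36.6% (33.0 to 40.3) were within 25 bases of the centre, a zone that holds 30.1% of the positions of those clusters. The shares were 40.5% for 7mer-m8, 37.1% for 8mers, 35.9% for 6mers and 33.6% for 7mer-A1, with overlapping intervals. As many lay upstream of the centre as downstream, 336 of 670 being upstream. In the 25 deep clusters, which are wide, 21.4% of 28 matches were within 25 bases.

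All 9284 3' UTR clusters were also aligned at their centres, whether or not they hold a match. A match near the centre makes nearly any cluster a member, so the central matches are largely those counted above. The central 50 bases held 0.535 miR-125 matches per kb (0.469 to 0.606, 242 matches), and the zone 100 to 200 bases away on both sides held 0.390 (0.361 to 0.421, 657 matches), a ratio of 1.37. For matches of 7 or 8 bases the densities were 0.307 per kb in the centre and 0.212 outside, a ratio of 1.45. For 6mers alone they were 0.228 and 0.178, a ratio of 1.28. The G+C share was 49.2% in the central 50 bases and 46.3% in the outer zone, and its part in this ratio was not tested. Against the 884 other 6-mers of the table, miR-125 ranked 162 of 885, where the median ratio was 0.925. Of the 222 6-mers with 4 G or C bases, miR-125 included, 60 had a ratio at least as high as miR-125, and their median was 0.989. Among 30 families abundant in brain miR-125 was the 7th. Ahead of it were miR-128 at 2.51, miR-27 at 2.10, miR-29 at 1.87, miR-99 at 1.64, miR-181 at 1.57 and miR-26 at 1.55, and miR-132 came next at 1.35. The 29 other brain families had a median of 1.08, so the central ratio of miR-125 stood above that of most brain families and well below that of miR-128.

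**Figure D4:**
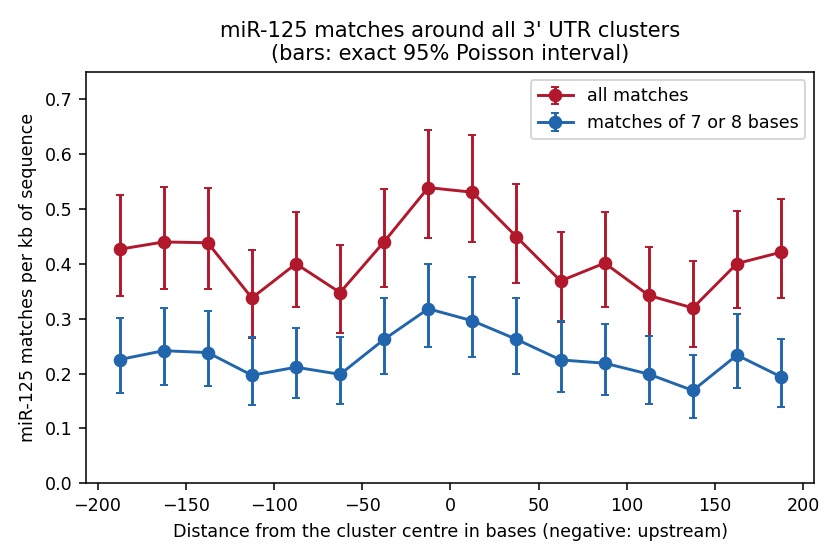
Density of miR-125 matches, in matches per kb, in bins of 25 bases by distance from the centre of all 3' UTR clusters, for all 6-base matches and for matches of 7 or 8 bases, with exact Poisson 95% intervals. The 2 central bins stand at 0.539 and 0.530 per kb for all matches, against 0.390 over the outer zone.

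The miR-125 clusters were richer in G+C than the rest. Their median G+C share was 51.5% (50.6 to 52.2, 593 clusters of known sequence), and that of the others was 48.0% (47.8 to 48.3, 7767 clusters). The 6-mer itself has 4 G or C bases, and it was left out of the G+C share where it lay wholly inside a cluster. The share of clusters that hold it was 3.44%, 6.84%, 8.18% and 9.90% in 4 equal classes of rising G+C. Their places along the 3' UTR overlapped with those of the others. In genes with a single unbroken 3' UTR of at least 500 bases, miR-125 clusters lay 38.8% of the way from the stop codon in the median (34.4 to 44.4, 309 clusters), and the others 40.5% (38.8 to 42.6, 4031 clusters). A circRNA identifier was attached to 3.56% of the miR-125 clusters and 4.54% of the others. A coding sequence was also named for 14.1% of the miR-125 clusters and 16.1% of the others, and an intron for 8.82% and 10.7%, with overlapping intervals in each case.

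The 646 clusters lay in 619 genes of the 4863 that have a 3' UTR cluster, which is 12.7%. All but 1 of the clusters name a single gene; that one names 25 genes, which are all counted among the 619, and without it 645 clusters lay in 594 of 4783 genes (12.4%). The table's 3' UTR column also names non-coding genes, such as the hosts Miat and Kcnq1ot1, named after their values were seen, so not every host is an mRNA. Host genes had more clusters and longer 3' UTRs than other genes: a mean of 3.02 clusters per gene in host genes and 1.79 in the others, and a median 3' UTR of 2676 bases (2478 to 2847) in host genes and 2350 (2289 to 2405) in the others. The share of genes with a miR-125 cluster was 6.95% among genes with 1 cluster, 13.4% with 2, 23.2% with 3 or 4 and 36.1% with 5 or more. A host needs only 1 cluster with a match, so a gene with more clusters has more chances to be one. The higher cluster number of host genes is therefore partly set by how they were defined. The 25 genes that share 1 cluster each enter that mean.

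Of the 619 host genes, 574 had 1 miR-125 cluster, 40 had 2, 4 had 3 and 1 had 4. The gene with 4 was Adcy1, a calcium-stimulated adenylyl cyclase of neurons. Its 4 miR-125 clusters had 105, 46, 37 and 16 reads, which is 204 of the 925 reads in its 17 3' UTR clusters. The deepest held a 7mer-m8 and the others a 6mer each. Nfic, a transcription factor of the nuclear factor I family, had 32, 30 and 19 reads on its 3 clusters, and Cacna1i, a T-type calcium channel, had 30, 19 and 18. Zfp704 had 30, 18 and 10 reads, and Dync1li2, a light intermediate chain of the dynein motor, had 33, 12 and 12. In these 4 genes no miR-125 cluster passed 33 reads.

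Genes named as miR-125 targets in general knowledge of the field were looked up from a list of 30, for which no source was at hand. Of these, 13 had a 3' UTR cluster and 7 of the 13 had one with a miR-125 match (53.8%, 29.1 to 76.8), against 12.7% of all genes with a 3' UTR cluster. By clusters, 8 of their 28 (28.6%) held a match, against 6.96% of all 3' UTR clusters. Genes can be named as targets because their 3' UTR holds a seed match, so these shares are not an independent check. The list was also chosen with earlier results of these data known. Map2k7, a kinase that activates JNK, had 89 reads on a cluster with 2 7mer-A1 matches and 45 on another with a 6mer. Both Map2k7 clusters are also annotated as intron. Bap1, a deubiquitinase that acts on histone H2A, had 78 reads on its only 3' UTR cluster, with the 8mer printed above and a 6mer. Dlg4, which encodes the synaptic scaffold PSD-95, had 36 reads over a 6mer. Ppp1ca, a catalytic subunit of protein phosphatase 1, had 17 reads on its only 3' UTR cluster, with a 7mer-m8. The anti-apoptotic genes Bcl2l2 and Mcl1 had 16 reads each, over a 6mer each. Lin28b, an RNA-binding inhibitor of let-7 processing, had 10 reads on a cluster with an 8mer 13 bases downstream of its centre, at chr10:45378798-45378825 on the minus strand, printed here as the classic partner of this seed.
Lin28b: gctcaggacaaagaactttgCTCAGGGA
The other 6 genes of the 13, Stat3, Dusp6, Cbfb, Mapk14, Igf2 and Itch, had between 10 and 119 reads in 3' UTR clusters and no miR-125 match there. The remaining 17 listed genes had no 3' UTR cluster, among them Lin28a, Trp53, Bak1 and Grin2a, which at this depth does not show that they were unbound.

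Neuronal gene groups were examined next. Of 20 glutamate synapse genes, 15 had a 3' UTR cluster and 4 of them a miR-125 cluster (26.7%, 10.9 to 52.0), against 12.7% of all genes with a 3' UTR cluster. Besides Gria1, with a further cluster of 14 reads, and Dlg4, these were Dlg2, another synaptic scaffold, with 47 reads and Dlgap1, which binds such scaffolds, with 12. Of 16 presynaptic release genes 15 had a 3' UTR cluster and 2 of them a miR-125 cluster (13.3%, 3.74 to 37.9), among them Cplx2, a complexin that binds the SNARE complex, with 46 and 12 reads on 2 clusters. Of 20 voltage-gated channel genes 17 had a 3' UTR cluster and 5 of them a miR-125 cluster (29.4%, 13.3 to 53.1). They included the potassium channel genes Kcna2 with 24 reads, Kcnc1 with 16 and Kcna1 with 15, and the calcium channel gene Cacna1c with 11. None of the clusters of Kcna2, Kcnc1 and Kcna1 was among the 3 deepest of its gene, and that of Cacna1c was the shallowest of 3. The Cacna1c cluster is also annotated as coding sequence. The intervals of the synapse and release lists span the share of all genes, and that of the channel list starts just above it. Lists of this size allow wide shares, and the share of genes rises with the number of clusters per gene, as given above. By clusters, a match was held by 5 of 46 in the synapse list (10.9%) and 3 of 63 in the release list (4.76%). In the channel list it was held by 5 of 76 (6.58%), against 6.96% of all 3' UTR clusters.

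The miR-125 clusters in genes that act on RNA and chromatin had under 40 reads each. Of 17 RNA-binding protein genes 14 had a 3' UTR cluster and 5 of them a miR-125 cluster (35.7%, 16.3 to 61.2), against 12.7% of all genes. By clusters, 7 of their 52 (13.5%) held a match, against 6.96% of all 3' UTR clusters. The splicing regulators Rbfox2, with 29 and 27 reads, and Celf2, with 39 and 16, had 2 each. The translational repressor Pum2 had 1 with 17 reads, also annotated as 5' UTR. The neuronal splicing factors Nova1 and Nova2 had 1 each with 14 and 11. Of 16 chromatin and transcription genes 8 had a 3' UTR cluster and 2 of them a miR-125 cluster (interval 7.15% to 59.1%), among them the histone methyltransferase Kmt2a with 26 reads. By clusters, 2 of their 35 held a match (5.71%). None of the 16 ERK pathway genes with a 3' UTR cluster had a miR-125 match in any of their 29 clusters, and none of the 8 genes of the miRNA machinery in their 43. With 0 of 16 genes the upper Wilson limit is 19.4%, and with 0 of 8 it is 32.4%, both above the 12.7% of all genes. That 12.7% covers genes with any number of clusters, and among genes with 5 or more the share was 36.1%, above both limits. By clusters, the share over all 3' UTR clusters was 6.96%.

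Markers of cell types were read because the labels name Camk2a neurons while the tissue was forebrain. Of 10 markers each, the number with a cluster in the 3' UTR, coding sequence or 5' UTR was 8 for excitatory neurons, 5 for interneurons, 10 for astrocytes, 8 for oligodendrocytes, 5 for microglia and 7 for endothelium. Their summed 3' UTR reads were 771, 248, 1479, 450, 53 and 137 in the same order, so the table also holds reads of genes that mark cells other than the labelled type, and the part of such cells in the miR-125 clusters was not tested. A miR-125 cluster was present in 1 of 6 excitatory neuron markers with a 3' UTR cluster (16.7%, 3.01 to 56.4). It was present in 1 of 5 interneuron markers (20.0%, 3.62 to 62.4), the receptor gene Erbb4 with 31 reads. Of 9 astrocyte markers 3 had one (33.3%, 12.1 to 64.6). They were the glutamate transporter gene Slc1a3 with 35, the aldolase gene Aldoc with 22 and Aldh1l1 with 18. Of 6 oligodendrocyte markers 2 had one (33.3%, 9.68 to 70.0), the myelin genes Mbp with 67 and Mobp with 19, both over an 8mer. The Aldh1l1 cluster is also annotated as coding sequence and intron, and that of Mbp as intron. No marker of microglia or endothelium had one, and 3 of each had a 3' UTR cluster at all, so the upper Wilson limit is 56.1% for each. All of these intervals span the 12.7% of all genes with a 3' UTR cluster.

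The other seeds in the same clusters were counted last, as the share of clusters with at least 1 match. Over 884 other 6-mers the median ratio of the share in miR-125 clusters to that in the other 3' UTR clusters was 1.16. In all, 112 (12.7%) were at least 1.5-fold more frequent in miR-125 clusters and 45 (5.09%) at least 1.5-fold less frequent. The balance turned per kb of cluster, with 49 more and 110 less frequent, and as a mean over the 4 width classes, with 51 more and 82 less frequent. The median ratio was 0.974 per kb and 1.01 over the width classes. The highest ratios belonged to 6-mers that share 4 or 5 bases with that of miR-125 when shifted, which a miR-125 match therefore helps to complete. There were 21 of these, with ratios of 1.83 to 6.18. The highest was miR-10b-5p, found in 27.6% of miR-125 clusters and 4.46% of the others, and miR-1231-3p, miR-670-5p and miR-331-3p followed at 5.56, 5.46 and 5.25.

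Among the 863 6-mers without such an overlap the ratio moved with base composition. The median was 0.784 for 6-mers with no G or C, then 0.787, 1.01, 1.18, 1.27 and 1.35 for 1 to 5 G or C bases, and 0.965 for the 20 with 6. Of those found in at least 200 clusters, miR-328-3p was highest, in 12.5% of miR-125 clusters and 5.77% of the others. Its ratio was 2.17, and 1.91 as a mean over 4 classes of G+C. The miR-328-3p 6-mer still shares 3 bases with that of miR-125 when shifted. The highest that shares 0 bases was miR-3094-5p at 1.94. Of all those in at least 200 clusters, the lowest was miR-467a-3p, in 1.55% of miR-125 clusters and 3.87% of the others. Its ratio was 0.400, and 0.537 over the G+C classes.

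**Figure D5:**
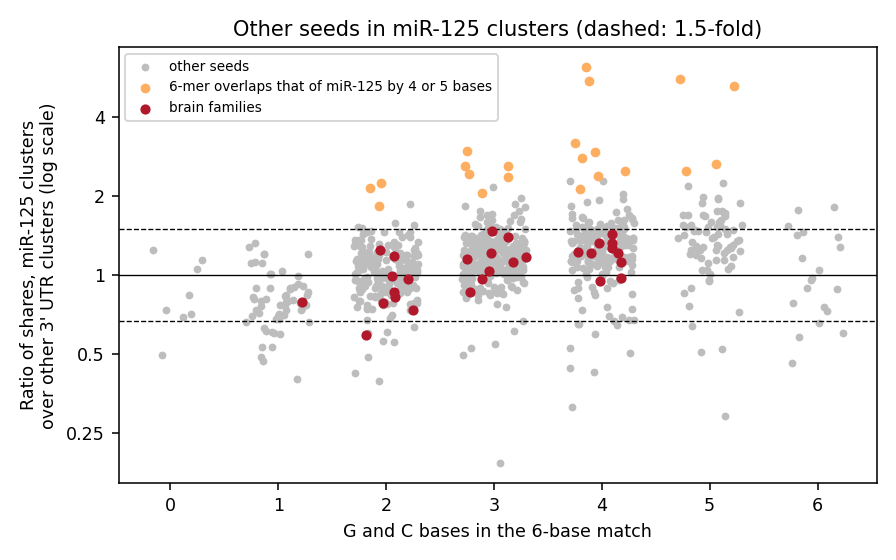
Ratio of the share of clusters with a match, miR-125 clusters over other 3' UTR clusters, for each of 884 6-mers (points, spread sideways within a column) by its number of G and C bases, with brain families and 6-mers that overlap that of miR-125 in colour; the ratio axis is logarithmic and dashed lines mark 1.5-fold. Brain families run from 0.588 (miR-153) to 1.47 (miR-218), while the overlapping 6-mers run from 1.83 to 6.18.

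Families abundant in brain were found in the miR-125 clusters at shares mostly close to those in the other 3' UTR clusters. Of the 29 besides miR-125, none was 1.5-fold more frequent and 1 was 1.5-fold less frequent, with a median ratio of 1.12. That one was miR-153, with 15 miR-125 clusters (2.32%, 1.41 to 3.80) against 3.95% of the others, and its ratio was 0.744 over the G+C classes. The highest were miR-218 at 1.47, miR-149 at 1.43 and miR-7 at 1.39, and the neuronal miR-124 was at 1.21 and miR-9 at 1.17. Among these 29 families, those most often found beside miR-125 were miR-128 in 100 clusters (15.5%, against 13.5% of the others), miR-27 in 95 and miR-149 in 87. miR-125 clusters held 2.25 of the 29 families on average and the others 2.02, and none was present in 16.4% of the miR-125 clusters and 17.4% of the others. In the 3 narrower width classes the average was lower in miR-125 clusters, at 1.13, 1.52 and 1.83, against 1.32, 1.64 and 2.09 in the others, and in the widest class it was higher, at 3.40 against 3.10. Of 15 families of other tissues, whose median ratio was 1.10, 1 passed 1.5-fold: miR-192, in 7.12% of miR-125 clusters (5.38 to 9.37) and 4.20% of the others, a ratio of 1.69. It was under 1.5 per kb at 1.44, over the width classes at 1.43 and over the G+C classes at 1.46.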

How the data were processed

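FLAG-Ago HITS-CLIP was carried out on mouse forebrain, with 5 Flag-Ago2 and 3 control libraries per the labels. Reads were aligned with BWA to mm10, per the submitters' processing notes. How clusters were called, how the controls were used and whether PCR duplicates were removed is not given in the sources used here. What was deposited is a table that gives, per the file headers, a whole-number read count per cluster, gene names by region, and the number of seed matches for each of 1281 miRNA columns, which hold 885 distinct 6-mers. It has 0 columns of single libraries, so the depth of each library is unknown and the edgeR comparison of Flag-Ago2 with control libraries that the design named was not run.

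The deposited coordinates became 1-based by adding 1 to the start. With that reading, the complement of miRNA bases 2 to 7 overlapping the cluster by at least 1 base gave the deposited numbers in all 8360 clusters of known sequence, for each of the 885 6-mers. Sequences came from GENCODE M21 transcripts (GRCm38). Shares carry Wilson intervals, medians exact binomial intervals and densities exact Poisson intervals. A deep cluster has 100 or more reads, and a seed was called at a 1.5-fold ratio. Tools were Python 3.11.15, numpy 2.4.6, pandas 2.3.3, SciPy 1.17.1 and matplotlib 3.10.9. Tested on simulated data, the steps typed 100% of 2000 planted sites and the median interval covered the true value in 95.4% of draws.

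The members and lists were chosen with earlier results of these data known. Named were the 15 deepest clusters, the 5 genes with the most miR-125 clusters, the clusters with the most matches, list members with a miR-125 cluster (up to 6 per list), listed seed families past 1.5-fold, and 8mers of the deepest clusters. Some items that this rule names are not reported here. Listed target genes without a match, the Lin28b and Fbxo32 sites, the other seed families given with a ratio and the densest cluster were named after their values were seen. Alternatives were the region, read, width, overlap and match rules described at the end.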

Additional observations from a re-analysis of the deposited data

Results flagged for a closer look

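miR-125 matches were also present in clusters outside 3' UTRs, which the comparisons above do not use. A cluster that names several regions was counted once, with 3' UTR first, then coding sequence, 5' UTR and intron. A match was present in 698 of 12960 coding-sequence clusters (5.39%), 49 of 894 5' UTR clusters (5.48%) and 1911 of 32704 intron clusters (5.84%). It was present in 69 of 2192 clusters with a gene on the opposite strand only (3.15%) and in 437 of 12108 unannotated ones (3.61%). Control libraries cannot be separated, so no background stands beside these shares and they do not show binding outside 3' UTRs. Per kb of cluster the matches numbered 0.450 in 3' UTRs, 0.378 in coding sequence, 0.388 in 5' UTRs, 0.444 in introns, 0.222 antisense and 0.256 unannotated. The deepest of each kind, named after their values were seen, included Ctbp1 in coding sequence with 343 reads, Sorbs2 in an intron with 236 and a cluster opposite Wdpcp with 479. The base composition of these regions was not compared.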

How the results depend on the processing

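Of 56 recalculations, 31 stayed within the interval of the value reported, or within 1.5 times it where it had no interval, and 25 moved. Clusters of 20 or more reads left 390 miR-125 clusters (7.58% of 3' UTR clusters) in 393 genes, with 6.41% of them deep. Matches of 7 or 8 bases left 367 (3.95%) in 353 genes. The ratio of median reads, 1.14 as reported, was 1 in the narrowest width class, 1.04 as a mean over the width classes, 0.919 per 100 bases and 1.04 against the other clusters of the host genes. The share of deep clusters was 0.980%, 2.26%, 2.37% and 7.02% from the narrowest to the widest class. Seeds at least 1.5-fold more and less frequent numbered 49 and 110 per kb, with a brain median of 0.953, and 51 and 82 as means over the width classes; at a 2-fold ratio they numbered 26 and 14. As means over G+C classes, an alternative chosen after seeing the data, they numbered 77 and 51. In deep clusters 7.14% of matches were 8mers and 21.4% lay within 25 bases of the centre, and in clusters of at most 150 bases 54.6% did. The causes were not tested, apart from the smaller number of clusters that a stricter rule leaves. Without the Fbxo32 cluster, also chosen after seeing the data, the ratio of median reads was 1.14. No paired analysis was possible because the table has no column per library; leaving out a library could not be run for the same reason. Depth limits the set itself: no cluster under 10 reads is listed.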
